A study of Mus musculus with 10 samples.

Results

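The genes described here are the nuclear-encoded subunits of the mitochondrial respiratory chain, in RNA sequencing of mouse somatosensory cortex. They were chosen by name alone: every gene whose symbol is that of a numbered Nduf subunit of the a, b, c, s or v series, an Sdh, Uqcr, Cyc1 or Cox4 to Cox8 subunit, or an Atp5 subunit of the ATP synthase. By this rule 84 of the 52636 genes in the table were members, each matched by its gene ID to the GENCODE M21 annotation. Complex I had 35 of them, complex II 4, complex III 9, complex IV 19 and complex V 17. Ndufa4, which carries a complex I name, was counted with complex IV, where its protein is now placed. Atp5sl, a factor named for complex V and known from complex I assembly, was counted with complex V by its name. The low-count filter passed 81 members, and the 3 that it left out were the heart or testis isoforms Cox7b2, Cox8b and Cox8c.

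All tissue was S1BF, the barrel field of somatosensory cortex, which receives whisker input, and was taken from C57BL/6 mice aged 17 days. The 4 cKO libraries were from mice labelled Nex-cre and Rxra cKO, the 2 Hetero libraries from mice labelled Nex-cre and Rxra cKO-Het, and the 4 Loxp libraries from mice with the same floxed allele, Rxratm1Krc/J, and no Cre in the label. Rxra encodes a nuclear receptor that pairs with other nuclear receptors on DNA. Nex-cre drives Cre from the Neurod6 locus, which is active in excitatory neurons of the cortex, so the other cells of the tissue keep the floxed allele intact. Whether every library is a different animal is not given in the labels, so p-values cover the spread between samples, which may be technical. In whole tissue, fewer cells of a type and less RNA per cell cannot be told apart.

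The respiratory chain passes electrons from NADH (complex I) and succinate (complex II) through complex III to oxygen at complex IV, and complex V uses the resulting proton gradient to make ATP. Most subunits are nuclear genes, while the mitochondrial genome encodes the rest, so both genomes have to supply each of complexes I, III, IV and V. In cortical neurons this machinery meets the cost of restoring ion gradients after activity. The transcription factors NRF1, GABPA (an ETS factor) and YY1 are known to bind promoters of many of these nuclear genes, with the coactivator PGC-1alpha, encoded by Ppargc1a.

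The promoters of 69 members were found in a RefSeq table (GRCm38.p6), as 75 windows of 300 bases that run from 250 bases before the start of a gene to 50 after it. The 3 sequences known from such promoters were searched on both strands: GCGC, any 2 bases and GCGC again for NRF1, CCGGAAG for ETS factors and AAGATGGCG for YY1. The NRF1 letters stood in 19 of the 75 windows (25.3%, against 6.23% of all 32851 windows in the table). The ETS letters stood in 16 windows (21.3%, against 8.86% of all), and the YY1 letters in 9 (12%, against 1.4% of all). No member had all 3, and 33 members had none. A match is a description of letters and was not tested as a binding site. Windows of 1 member per complex with an NRF1 match are shown as examples, with matches in capitals. That of Ndufc2 is added because, with all libraries included, its mRNA followed the other members least closely among those of complex I. These windows were chosen after values and matches were seen. All 5 examples were highest in the library Loxp 1, described below, as were 73 of the 81 members. The median deviation in Loxp 1, on the log2 scale, was 0.26 for the 18 tested members with an NRF1 match and 0.26 for the 49 without. Ndufs6 (chr13:73328433-73328732, minus strand) had 1 NRF1 and 1 YY1 match, Sdha (chr13:74350191-74350490, minus strand) 3 NRF1 matches and Uqcrc1 (chr9:108936398-108936697, plus strand) 2 NRF1 matches. Cox6a1 (chr5:115348909-115349208, minus strand) had 2 NRF1 matches and 1 ETS match, Atp5h (chr11:115419870-115420169, minus strand) had 1 of each, and Ndufc2 (chr7:97399753-97400052, plus strand) had none.
Ndufs6: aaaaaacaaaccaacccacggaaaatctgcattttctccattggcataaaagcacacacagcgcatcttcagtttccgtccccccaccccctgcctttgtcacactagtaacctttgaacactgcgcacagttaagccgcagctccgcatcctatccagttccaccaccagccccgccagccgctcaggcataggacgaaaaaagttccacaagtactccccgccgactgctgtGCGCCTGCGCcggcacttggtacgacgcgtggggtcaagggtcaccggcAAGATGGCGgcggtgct
Sdha: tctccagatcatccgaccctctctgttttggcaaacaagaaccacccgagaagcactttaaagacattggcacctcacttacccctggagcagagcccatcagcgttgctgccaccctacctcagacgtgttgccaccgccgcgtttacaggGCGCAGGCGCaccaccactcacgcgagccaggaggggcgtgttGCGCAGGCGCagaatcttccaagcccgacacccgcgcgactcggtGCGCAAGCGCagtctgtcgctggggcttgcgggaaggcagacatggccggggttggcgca
Uqcrc1: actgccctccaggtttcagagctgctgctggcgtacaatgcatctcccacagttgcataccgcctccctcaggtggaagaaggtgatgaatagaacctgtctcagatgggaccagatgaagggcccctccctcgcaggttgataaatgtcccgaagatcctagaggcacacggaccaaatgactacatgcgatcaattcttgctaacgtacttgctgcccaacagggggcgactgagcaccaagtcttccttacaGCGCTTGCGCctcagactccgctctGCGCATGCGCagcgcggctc
Cox6a1: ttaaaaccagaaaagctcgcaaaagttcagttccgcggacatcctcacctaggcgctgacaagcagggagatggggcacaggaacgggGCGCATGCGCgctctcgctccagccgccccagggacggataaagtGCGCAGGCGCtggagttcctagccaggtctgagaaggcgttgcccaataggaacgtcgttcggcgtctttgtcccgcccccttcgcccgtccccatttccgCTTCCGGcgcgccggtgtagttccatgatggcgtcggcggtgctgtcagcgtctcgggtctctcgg
Atp5h: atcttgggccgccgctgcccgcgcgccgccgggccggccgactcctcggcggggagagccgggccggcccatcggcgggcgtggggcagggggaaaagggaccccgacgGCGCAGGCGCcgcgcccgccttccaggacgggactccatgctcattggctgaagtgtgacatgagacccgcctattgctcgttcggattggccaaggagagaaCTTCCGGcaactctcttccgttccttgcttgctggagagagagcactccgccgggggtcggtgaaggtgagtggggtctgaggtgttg
Ndufc2: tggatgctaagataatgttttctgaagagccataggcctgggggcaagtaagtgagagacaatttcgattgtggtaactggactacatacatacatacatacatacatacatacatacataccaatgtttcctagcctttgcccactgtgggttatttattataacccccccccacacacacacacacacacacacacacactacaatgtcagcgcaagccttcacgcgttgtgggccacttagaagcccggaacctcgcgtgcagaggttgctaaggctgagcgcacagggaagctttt

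The libraries held 19332990 to 26086337 counts, and CPM values below are counts scaled to the total of their library. Rxra had 29.0, 32.4, 29.3 and 32.0 CPM in cKO, 23.2 and 26.4 CPM in Hetero, and 24.5, 21.6, 28.3 and 31.8 CPM in Loxp. Counts over the whole gene do not show whether the floxed part was deleted. Neurod6, whose locus carries the Cre, had 32.9, 22.9, 38.1 and 23.95 CPM in cKO and 34.4 and 34.0 CPM in Hetero, against 66.7, 55.7, 61.9 and 34.9 CPM in Loxp. The library labelled Loxp 4, with 34.9 CPM, lay within the range of the Cre libraries (22.9 to 38.1 CPM) and below the other Loxp libraries (55.7 to 66.7 CPM), so the counts and medians over all members are also given without it. Loxp 1 stood apart from all other libraries in the respiratory chain genes. The counts and medians of members against Loxp, and the log2 fold changes of the members named in those comparisons, are therefore given with and without Loxp 1.

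Most members were well expressed in this tissue. Levels were compared between genes in FPKM, the authors' counts scaled to the length of the gene model and to the depth of the library. In Loxp cortex 21 members had at least 100 FPKM, 54 had 10 to 100 FPKM, 6 had 1 to 10 FPKM and 3 had less than 1 FPKM. Cox6a1, the widely expressed isoform of subunit 6a of cytochrome oxidase, was first, with 1024 FPKM in cKO, 1007 FPKM in Hetero and 1074 ± 156 FPKM in Loxp (SD, n = 4). Cox8a followed with 775 FPKM in cKO, 768 FPKM in Hetero and 780 ± 77.1 FPKM in Loxp, and Cox4i1 with 318, 319 and 353 ± 56.0 FPKM in the same groups. These leading genes all belong to complex IV, and in FPKM the gap between Cox8a and Cox4i1 was larger than the spread between libraries. The size of this gap depended on the gene model. Scaled per kilobase of the principal transcript, Cox8a had means of 771, 771 and 775 in cKO, Hetero and Loxp. Cox4i1 had means of 646, 654 and 718 in the same groups.

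Outside complex IV the highest members were those for subunits alpha and beta of the catalytic head of ATP synthase. Atp5a1, which encodes subunit alpha, had 263 FPKM in cKO, 275 FPKM in Hetero and 271 ± 33.7 FPKM in Loxp. Atp5b, for subunit beta, had 241 FPKM in cKO, 248 FPKM in Hetero and 253 ± 24.6 FPKM in Loxp. The FPKM levels of this pair overlapped between libraries. Per kilobase of the principal transcript Atp5b was the higher, with means of 535, 554 and 560 in cKO, Hetero and Loxp. Atp5a1 had means of 336, 353 and 344 in the same groups, so the order of the pair depended on the gene model. In complex I the highest was Ndufb9, an accessory subunit of the LYR family, with 190 FPKM in cKO, 187 FPKM in Hetero and 211 ± 23.7 FPKM in Loxp. In complex III it was the small subunit gene Uqcr11, with 204 FPKM in cKO, 205 FPKM in Hetero and 207 ± 30.7 FPKM in Loxp. In complex II it was Sdha, the flavoprotein that oxidizes succinate, with 77.6 FPKM in cKO, 79.7 FPKM in Hetero and 78.9 ± 8.38 FPKM in Loxp.

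The median over the members of a complex differed less between complexes than the members of a complex did among themselves. For complex I the median of the members' mean levels was 54.2 FPKM in cKO, 52.8 FPKM in Hetero and 54.2 FPKM in Loxp. For complex III it was 78.4, 80.7 and 84.0 FPKM in the same groups, and for complex IV 73.2, 73.3 and 77.7 FPKM. For complex V it was 61.0, 61.2 and 64.7 FPKM. Within a complex, the highest member exceeded the lowest member with at least 1 FPKM in Loxp by 56.7-fold in complex I, 3.96-fold in complex II, 4.61-fold in complex III, 682-fold in complex IV and 37.3-fold in complex V. Per kilobase of the principal transcript, these ratios were 40.8, 5.49, 4.94, 661 and 60.4. By FPKM the lowest member was the testis isoform Cox6b2 in complex IV (1.57 FPKM in Loxp). In complex V it was Atp5s, for coupling factor B (7.26 FPKM in Loxp). The place of single genes also depended on the gene model: Atp5l, for membrane subunit g, has an exonic length of 6443 bases and 13.6 FPKM in Loxp, rank 72 of the members, but rank 21 per kilobase of its principal transcript. Ndufb2, a membrane-arm subunit of complex I, stayed low on both scales, with 3.61 FPKM in cKO, 3.15 FPKM in Hetero and 3.72 FPKM in Loxp and rank 78 on each.

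**Figure D1:**
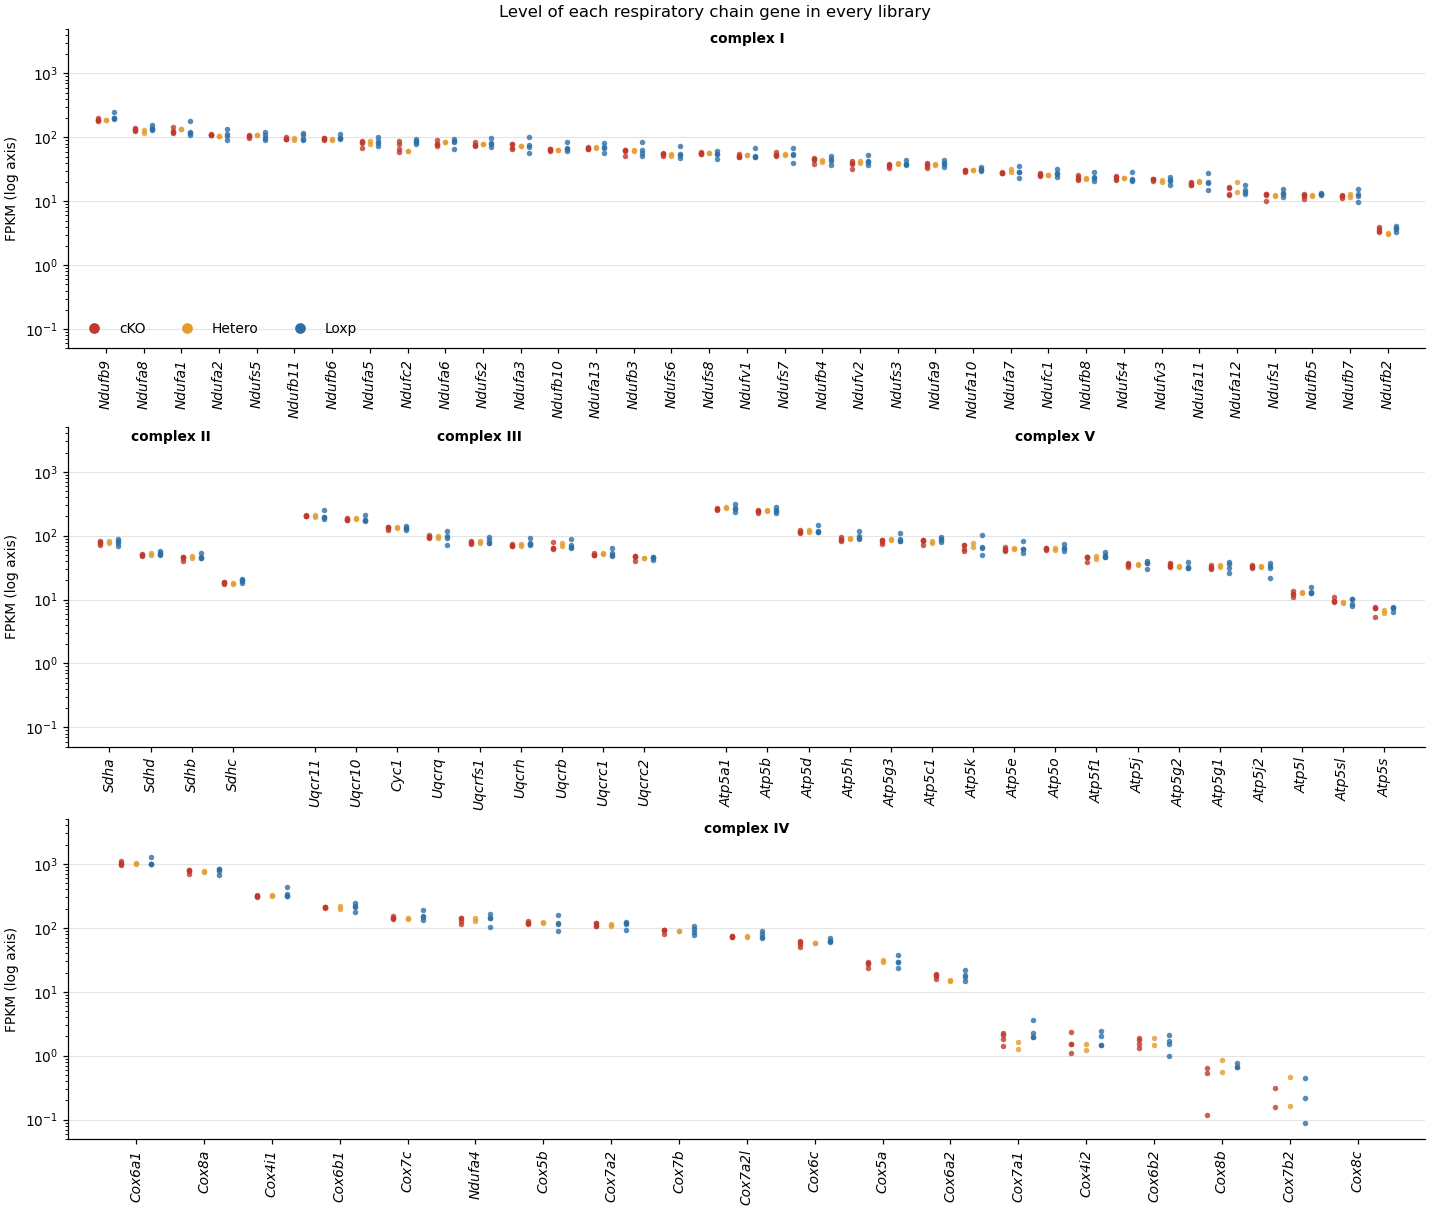
FPKM (log axis) of every member in each of the 10 libraries, ordered within each complex by its level, with cKO in red, Hetero in orange and Loxp in blue. Cox6a1 leads at 1024 FPKM in cKO and 1074 FPKM in Loxp, values of 0 cannot be drawn on a log axis (Cox8c has no point), and libraries of the 3 groups lie close together for most genes.

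Several complex IV subunits exist as a common isoform and one known from muscle, lung or testis, and in S1BF the common isoform made up nearly all of each family. Cox4i1 made up 99.5% of the summed FPKM of subunit 4 in cKO, 99.6% in Hetero and 99.5% in Loxp, the rest being Cox4i2, an isoform known from lung. Cox6a2, the heart and muscle isoform of subunit 6a, made up 1.71% ± 0.17 (SD, n = 4) in cKO, 1.46% in both Hetero libraries and 1.65% ± 0.13 (n = 4) in Loxp. Cox7a1, the heart and muscle isoform of subunit 7a, made up 1.67% ± 0.42 of that pair with Cox7a2 in cKO, 1.26% ± 0.16 (n = 2) in Hetero and 2.12% ± 0.58 in Loxp. The Loxp libraries held 2.76%, 2.46%, 1.61% and 1.66% Cox7a1, so their values overlapped those of cKO. Of the testis isoforms, Cox6b2 made up 0.77% of subunit 6b in cKO, 0.80% in Hetero and 0.73% in Loxp, and Cox8c had no count in any library. Muscle transcripts themselves were scarce, with 17.3 to 22.2 CPM summed over 5 muscle markers and under 0.5 CPM for Actc1 and Ckm in every library.

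Subunit c, which forms the proton-conducting ring of ATP synthase, comes from 3 genes that encode the same mature protein. Atp5g3 gave the largest share of their summed FPKM, 54.8% ± 2.14 in cKO, 56.3% ± 0.60 in Hetero and 57.6% ± 1.27 in Loxp. Atp5g2 gave 21.8%, 25.7%, 22.02% and 24.7% in the cKO libraries, against 20.9%, 22.1%, 20.7% and 21.5% in the Loxp libraries. The cKO and Loxp ranges overlapped. Atp5g1 gave 21.7% in cKO, 21.9% in Hetero and 21.1% in Loxp, close to Atp5g2. Per kilobase of the principal transcript, Atp5g3 gave 68.4% in cKO, 70.1% in Hetero and 71.1% in Loxp, Atp5g2 22.3%, 20.5% and 19.9% in the same groups, and Atp5g1 9.33%, 9.43% and 8.98%. Atp5g3 was thus first on both scales, while the gap between Atp5g2 and Atp5g1 depended on the gene model.

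Between libraries most members varied together, and Loxp 1 lay farthest from the rest. For each gene, the log2 CPM of a library was taken relative to the gene's own mean over the 10 libraries. The median of this deviation over the 81 members was -0.03, -0.09, -0.01 and 0.01 in the cKO libraries, -0.04 and 0.02 in the Hetero libraries, and 0.26, -0.12, 0.02 and -0.04 in the Loxp libraries. Loxp 1 was the highest, Loxp 2 the lowest, and the cKO and Hetero libraries lay between them. As group means of these medians, cKO had -0.03 ± 0.043 (SD, n = 4), Hetero -0.01 and Loxp 0.03 ± 0.164 (n = 4).

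In Loxp 1, 80 of the 81 members were above their own mean, and 73 of them had their highest value of all 10 libraries there, against 16.4% of all genes tested. The complex medians in Loxp 1 were 0.28 for complex I, 0.17 for complex II, 0.29 for complex III, 0.31 for complex IV and 0.24 for complex V. The deviations in Loxp 1 were largest for Cox7a1 (0.83), Atp5k (0.59), which encodes membrane subunit e of ATP synthase, and Ndufa11 (0.50), a membrane-arm subunit of complex I. The 8 members whose highest library was another one were Ndufa12, Ndufb2, Ndufc2, Sdhc, Uqcrc2, Cox4i2, Atp5s and Atp5sl. Loxp 2 held the lowest value for 36 members and cKO 2 for 21. Together the members took 1.32% of scaled counts in Loxp 1, against 1.01% to 1.11% in the 9 other libraries.

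**Figure D2:**
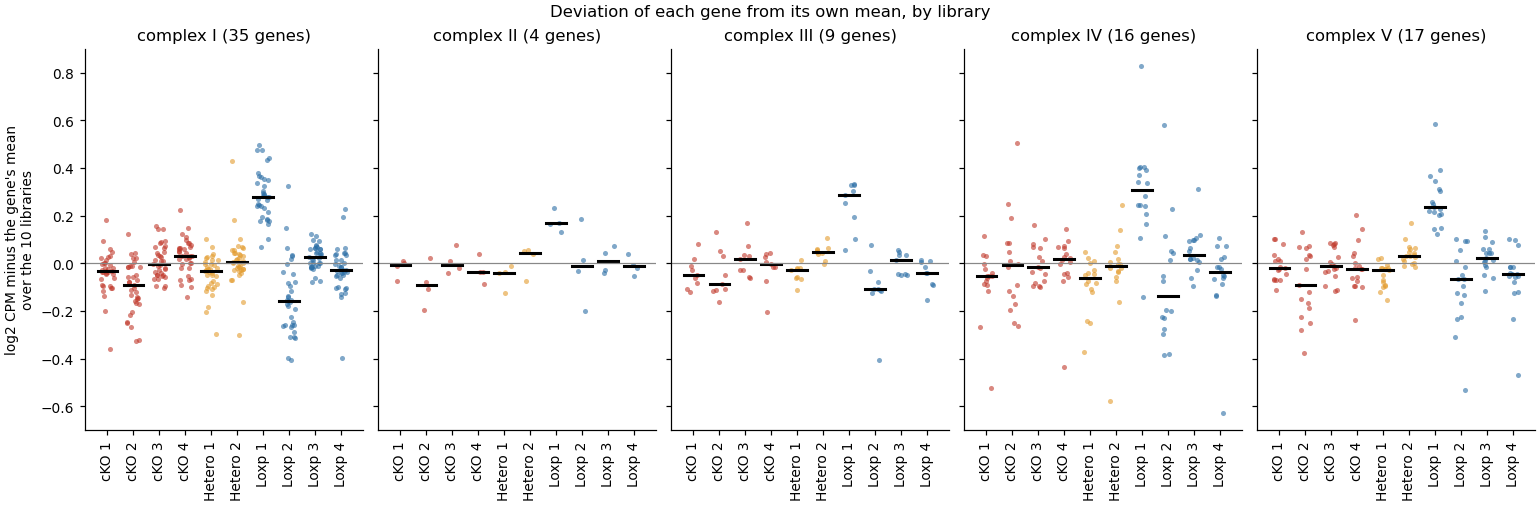
Each point is 1 gene in 1 library, as log2 CPM minus the gene's mean over the 10 libraries, in 5 panels for complexes I to V; bars are medians. Every complex has its highest median in Loxp 1, from 0.17 in complex II to 0.31 in complex IV, and Loxp 2 is low in complexes I, III and IV.

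As a description of how closely single members followed the rest, the correlation of each with the median of the other members over the 10 libraries had a median r of 0.79, and r was over 0.8 for 38 members. The closest were Ndufc1 (r = 0.963) and Ndufb3 (0.957), both in the membrane arm of complex I, Ndufs6 (0.946) in its NADH module, and Atp5b (0.946). The least close were Cox4i2 (-0.328), Sdhc (0.139), a membrane anchor of complex II, and Ndufc2 (0.142), also of the complex I membrane arm. Without Loxp 1 the median r was 0.53 over 9 libraries, and 11 members had r over 0.8. Atp5b kept 0.905 and Ndufb3 0.918, while Sdhc had -0.699 and Ndufc2 -0.184. In these 9 libraries 14 members had r under 0. The lowest was Cox7a1 (-0.718), and in complex I it was Ndufb11 (-0.665) and not Ndufc2. The points share their library, depth and scaling, so these values carry no test.

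Other measures also differed in the libraries that stood apart, and their part in the result was not tested. Tested members had a median exonic length of 1675 bases, against 3842 bases for all genes tested. Genes with under 1 kb of exons had a median deviation of 0.06 in Loxp 1 and -0.03 in Loxp 2, and those over 5 kb had -0.08 in Loxp 1. After removal of a smooth trend on length, the member median was 0.16 in Loxp 1, -0.10 in Loxp 2 and -0.11 in cKO 2. Striatal markers (Drd1, Drd2, Adora2a and Ppp1r1b, none at 0) summed to 99.8 to 539 CPM in cKO, 268 to 338 CPM in Hetero and 118 to 623 CPM in Loxp, with the highest sum in Loxp 1 and the lowest sums in cKO 2 and Loxp 2. The 4 haemoglobin genes summed to 21.0 to 157 CPM in cKO, 21.7 to 36.3 CPM in Hetero and 2.91 to 207 CPM in Loxp, again highest in Loxp 1. Markers of excitatory neurons summed to 5929 to 6442 CPM in cKO, 5707 to 6101 CPM in Hetero and 5254 to 6341 CPM in Loxp. The lowest sum was in Loxp 1, where Camk2a was lowest (2547 CPM), while Slc17a7 was lowest in Loxp 2 (2125 CPM). By median deviation these markers were lowest in Loxp 2 (-0.19), with -0.14 in cKO 2 and -0.09 in Loxp 1. In cKO 2 the median deviation was -0.55 for oligodendrocyte markers, 0.77 for markers of their precursors, 0.42 for astrocyte markers and -0.24 for interneuron markers. In Loxp 2 these values were -0.03, 0.17, 0.15 and -0.29.

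The 13 protein-coding genes of the mitochondrial genome were not highest in Loxp 1. They summed to 26252, 30859, 26713 and 27145 CPM in cKO, 25576 and 25381 CPM in Hetero, and 24100, 29723, 23850 and 26847 CPM in Loxp. Loxp 1 was among the lower libraries here, and cKO 2 and Loxp 2, where many nuclear members were lowest, were the highest. In cKO against Loxp, 12 of the 13 were higher in cKO (median log2 fold change 0.15), against 50.1% of all genes, and 12 without Loxp 1 (0.09). None passed the edgeR test at an adjusted p under 0.05 with all libraries. The gene mt-Nd4l, for a complex I subunit, is named after its values were seen; it overlaps mt-Nd4, so reads may be shared. It had 55.7, 10.5, 32.9 and 23.2 CPM in cKO and 9.76 and 11.4 CPM in Hetero, against 2.75, 5.74, 6.09 and 9.57 CPM in Loxp. Every cKO library lay above every Loxp library, cKO 2 by the least. Levels among the mitochondrial genes were very uneven. In Loxp, mt-Co1 averaged 10360 CPM and mt-Nd4 2235 CPM, but mt-Nd4l only 6.04 CPM. Also low there were mt-Co2 (53.3 CPM), mt-Atp6 (40.2 CPM), mt-Co3 (23.0 CPM), mt-Nd3 (8.32 CPM) and mt-Atp8 (1.1 CPM). The median of 0.15 above was the value of mt-Atp6. Whether these low genes lost reads in mapping or counting was not tested. Against Loxp, its log2 fold change was 2.33 in cKO (SE 0.426, unadjusted p = 9.85e-05, adjusted p = 0.9998 by edgeR). Without cKO 2 it passed, with an adjusted p of 0.0237 by edgeR.

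**Figure D3:**
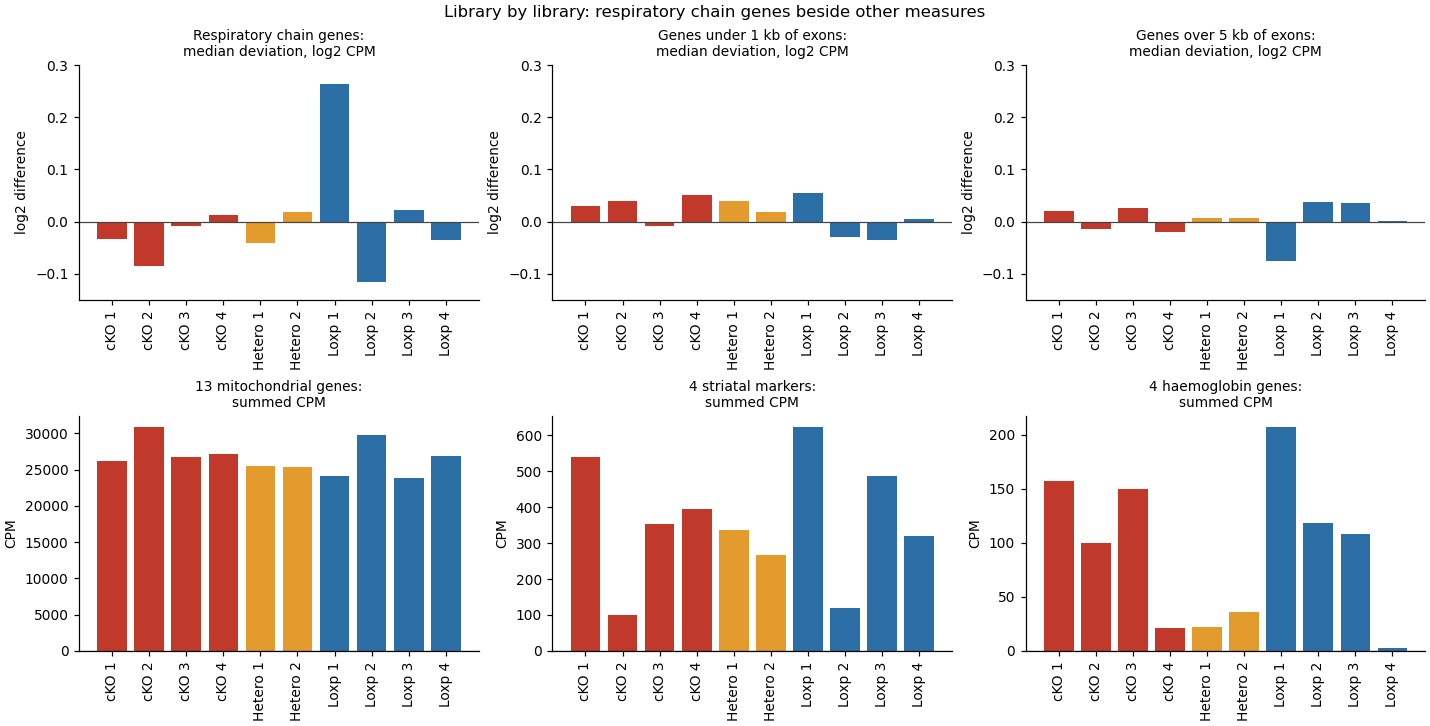
Bars for each library, with cKO in red, Hetero in orange and Loxp in blue: top, the median deviation of log2 CPM from each gene's mean for the respiratory chain members, for genes with under 1 kb of exons and for those over 5 kb; bottom, the summed CPM of 13 mitochondrial genes, 4 striatal markers and 4 haemoglobin genes. Loxp 1 has the tallest bar for the members (0.26), the striatal markers (623 CPM) and the haemoglobin genes (207 CPM), while the mitochondrial genes are highest in cKO 2 (30859 CPM).

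The first comparison sets mice labelled Rxra cKO against floxed mice with no Cre in the label. Over the whole gene, Rxra counts were no lower in cKO, with a log2 fold change of 0.21 against Loxp. In cKO against Loxp, 71 of the 81 members were lower in cKO and 10 higher, and their log2 fold changes ran from -0.36 to 0.10 with a median of -0.07. None passed edgeR's quasi-likelihood test at an adjusted p under 0.05, as none of the 18455 genes tested did (0%), and the smallest adjusted p of a member was 0.9998. At an unadjusted p under 0.05, edgeR gave 0 members and 2.53% of all genes. DESeq2 called 2 genes past its threshold, Neurod6 and Egr2, and no member. Of all genes, 49.9% were below 0 in this comparison. No member had cKO and Loxp values that did not overlap, against 1.54% of all genes (0.721% lower and 0.818% higher). Without Loxp 1, the values of 1 member, Uqcr11, did not overlap and were higher in cKO, against 3.66% of all genes without overlap in either direction.

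The direction of the members rested on Loxp 1. Without it, 35 of the 81 members were lower in cKO and 46 higher, with a median of 0.02, while 49.6% of all genes were lower; edgeR then gave 0 members and 2.81% of all genes at an unadjusted p under 0.05. Without Loxp 2, 78 members were lower and the median was -0.12. Without the library labelled Loxp 4, 69 were lower and the median was -0.09.

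By complex, 32 of 35 members were lower in cKO in complex I (median -0.07), 4 of 4 in complex II (-0.08), 6 of 9 in complex III (-0.02), 15 of 16 in complex IV (-0.07) and 14 of 17 in complex V (-0.07). Without Loxp 1, 22 of 35 were higher in cKO in complex I (0.03), 1 of 4 in complex II (-0.03), 6 of 9 in complex III (0.02), 9 of 16 in complex IV (0.02) and 8 of 17 in complex V (-0.01). The sign of the median thus changed for complexes I, III and IV and not for complexes II and V.

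**Figure D4:**
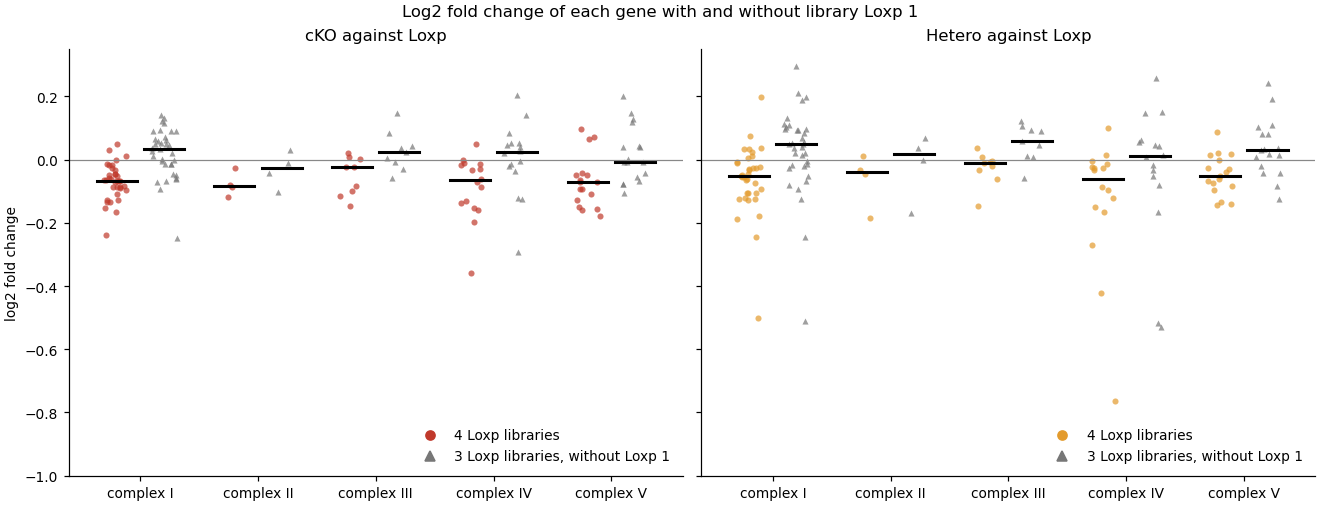
Log2 fold change of each tested member by complex in cKO against Loxp (left) and Hetero against Loxp (right), fitted with all 4 Loxp libraries (circles) and without Loxp 1 (triangles); black bars are medians. With all libraries 71 of 81 genes lie below 0 in the left panel and 64 in the right, and without Loxp 1 these counts are 35 and 27.

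In complex I the smallest p in cKO against Loxp belonged to Ndufc2 and Ndufb9. Ndufc2, at chr7:97400003-97407802 on the plus strand (GRCm38), had 43.9, 50.5, 59.8 and 65.8 CPM in cKO, 45.9 and 45.8 CPM in Hetero, and 63.7, 70.5, 59.5 and 66.0 CPM in Loxp. The lower cKO pair lay below every Loxp library, and the other pair lay among them. In cKO against Loxp its log2 fold change was -0.24 (SE 0.112, unadjusted p = 0.0518 by edgeR), and an exact two-sided permutation test gave p = 0.171, where the smallest possible was 0.0286. Ndufb9 had 124, 120, 121 and 133 CPM in cKO and 122 and 123 CPM in Hetero, against 162, 131, 133 and 128 CPM in Loxp. One Loxp library, Loxp 1, lay far above the rest, and the others overlapped the cKO values; its log2 fold change was -0.15 in cKO (exact permutation p = 0.0857) and -0.18 in Hetero, and 19.5% of its exonic length is shared with another gene. Without Loxp 1 the log2 fold changes of Ndufb9 were -0.07 in cKO and -0.09 in Hetero, and that of Ndufc2 in cKO was -0.25. Without cKO 1, Ndufc2 had -0.15 in cKO against Loxp.

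In complex II, Sdhc had 58.4, 62.4, 61.9 and 57.9 CPM in cKO and 56.5 and 58.4 CPM in Hetero, against 67.4, 70.04, 60.4 and 63.2 CPM in Loxp. Loxp 3 fell among the cKO values, and Sdhc had a log2 fold change of -0.12 in cKO (exact permutation p = 0.114), and -0.10 without Loxp 1. Sdhd, the other membrane anchor, had 63.1, 60.2, 61.9 and 62.0 CPM in cKO and 61.8 and 65.4 CPM in Hetero, against 71.7, 64.3, 65.5 and 61.3 CPM in Loxp. Here the library labelled Loxp 4 lay within the cKO range, and the log2 fold change in cKO was -0.09 with Loxp 1 and -0.04 without it. In complex III, Uqcrh, the hinge protein that helps cytochrome c dock, had 87.2, 85.5, 90.4 and 92.1 CPM in cKO and 85.5 and 92.1 CPM in Hetero, against 115.8, 90.3, 94.6 and 92.7 CPM in Loxp. All but Loxp 1 lay close together, and the log2 fold change in cKO was -0.15 (exact permutation p = 0.0857), and -0.06 without Loxp 1. Uqcrfs1, the Rieske iron-sulfur protein, had a log2 fold change of -0.10 in cKO, with overlapping groups, and -0.03 without Loxp 1.

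In complex IV, Cox6c, a small membrane subunit, had 201, 180, 215 and 220 CPM in cKO and 210.0 and 209 CPM in Hetero, against 247, 216, 224 and 225 CPM in Loxp. The highest cKO library passed the lowest Loxp library, and the log2 fold change in cKO was -0.16 (exact permutation p = 0.0571). It was -0.12 without Loxp 1 and -0.10 without cKO 2. Cox4i1 had 485, 515, 482 and 499 CPM in cKO and 485 and 509 CPM in Hetero, against 680, 533, 493 and 498 CPM in Loxp. Loxp 3 and the library labelled Loxp 4 lay within the cKO range, and Loxp 1 lay far above it. The log2 fold change was -0.15 in cKO and -0.15 in Hetero, both against the same Loxp libraries, and -0.04 and -0.03 without Loxp 1.

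In complex V, Atp5h, which encodes peripheral-stalk subunit d, had 126, 121, 131 and 139 CPM in cKO and 129 and 136 CPM in Hetero, against 176, 145, 136 and 129 CPM in Loxp. The highest cKO value lay above the values of 2 Loxp libraries, and the log2 fold change in cKO was -0.18 (SE 0.0951, exact permutation p = 0.171), and -0.08 without Loxp 1. A near-identical copy of Atp5h elsewhere in the genome, Gm10250, held 2696 counts over all libraries, against 31590 for Atp5h, so reads may be split between them. Atp5f1, for peripheral-stalk subunit b, had 193, 158, 190 and 190 CPM in cKO, and 180 and 201 CPM in Hetero, against 226, 206, 194 and 190 CPM in Loxp. The cKO and Loxp values of Atp5f1 overlapped at their edges, cKO 2 was the lowest library, and the log2 fold change in cKO was -0.16 (exact permutation p = 0.0571). It was -0.11 without Loxp 1 and -0.09 without cKO 2.

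**Figure D5:**
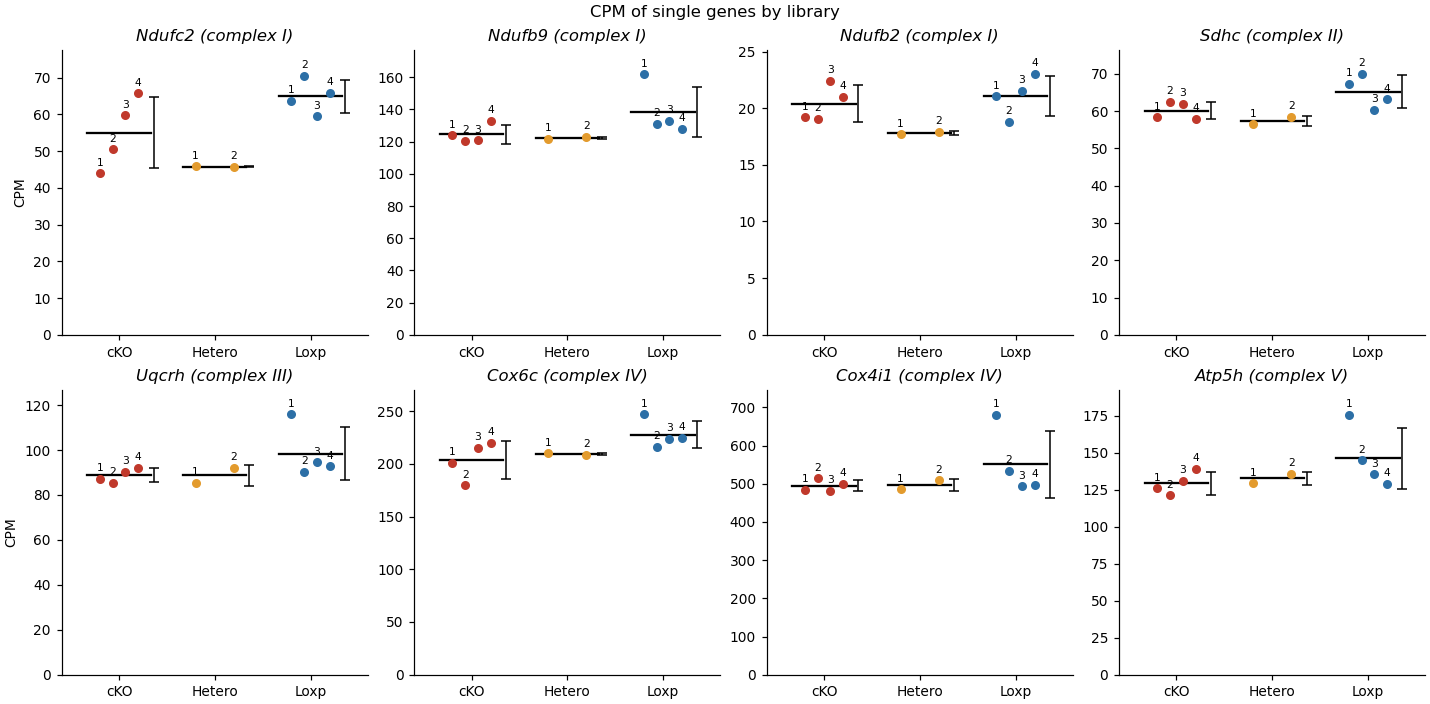
CPM of 8 members in each library, numbered by replicate, with cKO, Hetero and Loxp from left to right; lines are group means and brackets are 1 SD. Loxp 1 stands above all other libraries for Ndufb9, Uqcrh, Cox4i1 and Atp5h, while for Ndufc2 both Hetero libraries lie below all 4 Loxp libraries.

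In Hetero against Loxp, which shares its Loxp libraries with the first comparison, 64 of the 81 members were lower in Hetero and 17 higher, and their log2 fold changes ran from -0.76 to 0.20 with a median of -0.05. Of all genes, 51.8% were below 0. None of the 18455 genes passed edgeR's adjusted p under 0.05 (0%). At an unadjusted p under 0.05, edgeR gave 1 member, Ndufc2, and 2.54% of all genes (1.25% lower and 1.28% higher). DESeq2 called 17 genes and no member. Without Loxp 1, 27 members were lower and 54 higher, with a median of 0.04, while 51.3% of all genes were lower, and edgeR gave 1 member and 2.93% of all genes at an unadjusted p under 0.05. Without Loxp 2, 78 were lower (median -0.10), and edgeR gave 4 of the 81 members and 498 of all 18425 genes at an unadjusted p under 0.05. Without the library labelled Loxp 4, 64 were lower (-0.07). With 1 Hetero library left, 46 were lower without Hetero 1 (-0.02) and 70 without Hetero 2 (-0.08). By complex, 27 of 35 were lower in complex I (median -0.05), 3 of 4 in complex II (-0.04), 7 of 9 in complex III (-0.01), 14 of 16 in complex IV (-0.06) and 13 of 17 in complex V (-0.05). Without Loxp 1, 23 of 35 were higher in Hetero in complex I (0.05), 2 of 4 in complex II (0.02), 8 of 9 in complex III (0.06), 9 of 16 in complex IV (0.01) and 12 of 17 in complex V (0.03).

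Ndufc2 was the member that stood out in Hetero. Its 45.9 and 45.8 CPM in Hetero lay below the lowest Loxp value of 59.5 CPM, and the log2 fold change was -0.50 (SE 0.141, unadjusted p = 0.0033, adjusted p = 0.9998 by edgeR). An exact two-sided permutation test gave p = 0.0667, the smallest that 2 against 4 libraries allow. Without Loxp 1 its unadjusted p by edgeR was 0.00577 and the log2 fold change -0.51. In the authors' deposited table Ndufc2 was marked as down in Hetero against Loxp, with a log2 fold change of -0.50, a p-value of 1.82e-05 and an adjusted p of 0.0229. The authors' deposited table marked 11 of 27904 genes as down in that comparison (0.0394%), and Ndufc2 was the only member among them; in cKO against Loxp it marked no gene as down of 29220 (0%). EdgeR and DESeq2 on the deposited counts did not make this call, and without a low-count filter the adjusted p of Ndufc2 by edgeR was 0.0628. Which filter and test the authors used is not stated in the sources at hand.

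The genes next to Ndufc2 on chromosome 7 differed among themselves in Hetero. Alg8, upstream of it, had 6.31, 5.14, 5.02 and 5.18 CPM in cKO and 5.52 and 4.23 CPM in Hetero, against 5.92, 5.65, 4.95 and 4.71 CPM in Loxp. Its Hetero values overlapped those of Loxp. Thrsp, downstream on the other strand, had 13.4, 16.2, 16.2 and 27.8 CPM in cKO and 8.84 and 11.1 CPM in Hetero, against 14.3, 20.1, 15.8 and 21.1 CPM in Loxp, so that both Hetero libraries lay below all Loxp libraries. Further out, both Hetero values of Usp35 (31.1 and 30.8 CPM) lay above every Loxp value (at most 29.6 CPM). The same held for Ints4 (20.2 and 22.6 CPM, against at most 19.7 CPM) and, narrowly, for Gab2 (17.68 and 18.7 CPM, against at most 17.65 CPM). Hetero values of Kctd21 lay within the Loxp range, and those of Kctd14, at about 1 CPM, overlapped it. Over all genes tested, 11.4% had Hetero and Loxp values that did not overlap. The neighbours were looked at after the values of Ndufc2 were seen and were given no test as a set.

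In all, 7 members had Hetero values below every Loxp value, 8.64% of those tested, and none had both above. Over all genes 5.77% were lower and 5.64% higher without overlap. Without Loxp 1, 16 members had no overlap in either direction, against 20.1% of all genes. These 7 members were Ndufb2, Ndufb5, Ndufb9, Ndufc2, Sdhc, Cox6c and Cox7a1, of which Ndufb5 shares 12.3% of its exonic length with Mrpl47. Ndufb2 had 19.2, 19.0, 22.4 and 21.0 CPM in cKO and 17.7 and 17.9 CPM in Hetero, against 21.1, 18.8, 21.5 and 23.0 CPM in Loxp. Its Hetero libraries were the lowest of all 10, with a log2 fold change of -0.24 against Loxp (SE 0.117, unadjusted p = 0.0557 by edgeR) and -0.25 without Loxp 1. Cox7a1 had 1.14, 1.21, 0.973 and 0.753 CPM in cKO and 0.868 and 0.674 CPM in Hetero, against 1.93, 1.24, 1.06 and 1.04 CPM in Loxp. Its log2 fold change of -0.76 was the lowest of the 81 members in Hetero, but the standard error was 0.374 at about 1 CPM, and without Loxp 1 the fold change was -0.53 on the log2 scale.

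Comparing cKO with Hetero leaves Cre in both groups. Of the 81 members 48 were lower in cKO and 33 higher, with a median log2 fold change of -0.01, while 47.5% of all genes were below 0. EdgeR gave 0 members at an unadjusted p under 0.05, against 1.74% of all genes (0.764% lower and 0.975% higher), and none of the genes passed the adjusted threshold (0%); DESeq2 called 3 genes and no member. In all, 7 members did not overlap between these groups, against 9.43% of all genes: Ndufa7, Ndufa11, Ndufs3 and Atp5g3 were lower in cKO (4.94% of members, against 4.54% of all genes) and Ndufa2, Ndufb2 and Cox6a2 higher (3.7%, against 4.9%). The smallest p was again that of Ndufc2, with 43.9 to 65.8 CPM in cKO and 45.8 to 45.9 CPM in Hetero, and a log2 fold change of 0.26 (SE 0.139, unadjusted p = 0.0813 by edgeR). Cox6a2 had 10.8, 12.1, 13.1 and 12.5 CPM in cKO, against 9.91 and 10.5 CPM in Hetero, with a log2 fold change of 0.25 (SE 0.156); 10.3% of its exonic length is shared with Itgad on the other strand. Without Hetero 2, 35 of the 81 members were lower in cKO (median 0.01), and without Hetero 1, 60 (-0.04). Among the other complexes, Uqcrb and Uqcr10, small subunits of complex III, had -0.10 and -0.06, and in complex V Atp5g3 had -0.09 and Atp5sl, a factor known from complex I assembly, 0.11.

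Genes that serve the chain without being subunits were counted from lists of textbook members. Of 46 tested assembly factors, 26 were lower in cKO against Loxp (median -0.03) and 32 in Hetero against Loxp (-0.05). Of all genes tested, 49.9% and 51.8% were lower in these comparisons. The complex IV assembly factors had 6 of 18 lower in cKO and 11 of 18 in Hetero, and those of complex I 12 of 15 and 11 of 15. Sco2 and Pet117, both complex IV assembly factors, were listed at 0. In Loxp 1 the median deviation of all assembly factors was 0.09, and 0.01 after removal of the length trend, against 0.26 and 0.16 for the subunits. None passed the adjusted threshold in edgeR.

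Single genes of these lists had small p-values that did not pass. Cox11, which delivers copper to cytochrome oxidase, averaged 11.4 CPM in cKO, 13.9 CPM in Hetero and 14.3 CPM in Loxp, with a log2 fold change in cKO against Loxp of -0.32 (SE 0.106, unadjusted p = 0.00888 by edgeR). Ndufaf2, a complex I assembly factor, averaged 11.7 CPM in Hetero, against 14.6 CPM in Loxp (log2 fold change -0.32, unadjusted p = 0.0346 by edgeR). Tfam, which packages and transcribes mitochondrial DNA, averaged 24.2 CPM in cKO, against 27.8 CPM in Loxp (-0.20, unadjusted p = 0.0329 by edgeR). Ndufaf5, a complex I assembly factor, averaged 18.9 CPM in cKO, against 21.7 CPM in Loxp (-0.20, unadjusted p = 0.0486 by edgeR).

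Of 12 regulators of mitochondrial genes, 11 were lower in cKO (median -0.07) and 9 in Hetero (-0.09), both against Loxp. Of all genes tested, 49.9% and 51.8% were lower in these comparisons. Without Loxp 1 the counts of lower regulators were 10 and 9, with medians of -0.11 and -0.12, so the medians of this list stayed below 0 where those of the subunits did not. By library, the median deviation of the regulators was lowest in cKO 2 (-0.18). It was -0.01, 0.02 and 0.01 in the other cKO libraries, -0.04 and -0.02 in Hetero, and 0.05, 0.06, 0.03 and 0.04 in Loxp. Ppargc1a averaged 49.1 CPM in cKO, 48.4 CPM in Hetero and 50.1 CPM in Loxp, and Nrf1 19.9, 19.0 and 20.6 CPM in the same groups. Of 13 genes of the TCA cycle, which supplies NADH and succinate to the chain, 11 were lower in cKO (-0.06) and 9 in Hetero (-0.02), and 9 and 8 without Loxp 1. Cycs, the electron carrier cytochrome c, averaged 159 CPM in cKO, 162 CPM in Hetero and 161 CPM in Loxp.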

How the data were processed

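RNA of S1BF tissue was extracted with Trizol and made into NEBNext Ultra libraries, per the labels' protocols. Per the submitters' processing notes, the authors used featureCounts 1.5.0-p3 and the build mm10 for the deposited counts; no aligner, annotation or use of strand is given in the sources used here. The authors also deposited FPKM per gene and library, used here for levels between genes. Their deposited log2 fold changes and p-values, of a test not named in the sources used here, are quoted only as theirs.

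Counts were tested with edgeR 4.0.16 (R 4.3.3, limma 3.58.1): TMM scaling, filterByExpr defaults, glmQLFit and glmQLFTest, 1 mean per group over all 10 libraries, Benjamini-Hochberg adjustment over 18455 of 32197 genes with a count, threshold 0.05. The biological coefficient of variation was 14.9%. CPM use the scaled totals, and log2 CPM a prior count of 2. The fit was tested on simulated data. Exact permutation tests enumerated 70 arrangements (4 against 4) or 15 (2 against 4). No pair of libraries was a duplicate, with a chi-square per gene of 4.94 to 41.3 over 45 pairs. Lengths, overlaps and copies came from GENCODE M21 (52489 of 52636 IDs matched). By these, 6 members had a copy of at least 98% identity over 50% of a transcript, and 11 shared over 10% of their exonic length with another gene.

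Replicate numbers come from the titles, and whether same-numbered samples were handled together is not given in the labels. Same-numbered cKO and Loxp libraries correlated at 0.095, 0.199, 0.042 and 0.322 in their deviations from group means. Moreover, 4 of 4 cKO libraries correlated best with the Loxp library of their own number. The fit reported does not pair samples, and a replicate block was run as an alternative. The members and lists were chosen with earlier results of these data known, so no list was given a test. Named genes were, per comparison and complex, the 2 with the smallest p, the highest member per complex in FPKM, the isoform families, any member past the threshold, and Rxra and Neurod6. Chosen after their values were seen were the members that followed the rest most or least closely, had extreme values in Loxp 1, or had groups without overlap, the promoters shown, the neighbours of Ndufc2, and single genes of the other lists. Alternatives tried were other scalings and filters, DESeq2 1.42.0, only the groups compared, a replicate block, a length offset and each library left out. The newer edgeR residual deviance, lengths of principal transcripts, members without a copy, and counts at an unadjusted p and of groups without overlap without Loxp 1 were chosen after seeing the data.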

Additional observations from a re-analysis of the deposited data

Results flagged for a closer look

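Of 68 sets of 4 libraries examined, 5 held a library far from the others by Dixon's test, which chance alone gives in about 1 in 20 sets. In 3 of them the library was Loxp 1: Ndufb9 at 161.7 CPM, against 128.1 to 133.1 CPM in the other Loxp libraries; Uqcrh at 115.8 CPM, against 90.27 to 94.56 CPM; and Cox6a1 at 924.1 CPM, against 689.7 to 717.1 CPM. Atp5f1 had 158.2 CPM in cKO 2, against 189.5 to 193.1 CPM in the other cKO libraries. Cox8b had 0 CPM in Loxp 2, against 0.2393 to 0.2752 CPM in the other Loxp libraries.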

How the results depend on the processing

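No member passed the adjusted threshold under any alternative run. Over all genes, where the edgeR fit reported gave 0 in each comparison, the counts (in the order cKO over Loxp, Hetero over Loxp, cKO over Hetero) were 32, 68 and 39 without a low-count filter, and 2, 17 and 3 with DESeq2. With the replicate block they were 1, 1 and 0, and the member medians were -0.067, -0.045 and -0.012. What a shared replicate number stands for is not given in the labels. Still, 4 of 4 cKO libraries correlated best with the Loxp library of their own number. Leaving out each library in turn gave 0 to 1, 0 to 15 and 0 to 14 genes past the threshold, with the 1, mt-Nd4l, without cKO 2 and the 15 and 14 without Hetero 1, which leaves Hetero 2 as a lone library assumed to vary like the other groups; its choroid plexus markers summed to 730 CPM, against 2.79 to 22.2 CPM elsewhere. The member median ranged from -0.12 to 0.021 in cKO against Loxp and from -0.10 to 0.036 in Hetero against Loxp, with the upper ends without Loxp 1, and from -0.038 to 0.014 in cKO against Hetero, with the upper end without Hetero 2. With the length offset the medians were -0.06, -0.03 and -0.01. In each of the first 2 comparisons 2 of 81 members had an unadjusted p under 0.05 by edgeR. Over all 18455 genes, 499 and 493 had such a p in these comparisons. Of 1824 values of single named genes under an alternative, 1695 kept their direction and 129 changed sign by less than the spread. Ndufc2 in Hetero against Loxp kept a log2 fold change of -0.54 to -0.43, with an adjusted p of 0.0628 to 1 over 19 alternatives.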
